A study of Caenorhabditis elegans with 2 samples.

Results

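Muscle thick and thin filaments are built from myosin, paramyosin, actin and tropomyosin. In *Caenorhabditis elegans*, the body wall and the pharynx, the pumping organ of the foregut, use different myosin heavy chains. The 10 genes described here encode 4 muscle myosin heavy chains, paramyosin, tropomyosin and 4 actins. They were chosen by name as a highly transcribed, tissue-specific contrast to ribosomal protein genes. They are 10 of 19973 annotated protein-coding genes. Expression was not measured here, so how tissue-specific each of the genes is cannot be read from these data. Thick filaments carry the myosin motors around a paramyosin core, and thin filaments are polymers of actin with tropomyosin lying along them.

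The measurements are chromatin immunoprecipitation followed by sequencing (ChIP-seq) of the zinc finger protein ZTF-4 tagged with enhanced green fluorescent protein. There was 1 group with 2 biological replicates, so the data hold no comparison between conditions. Both replicates were whole L2 larvae of strain OP322, which has the genotype unc-119(ed3) III with the integrated transgene wgIs322, and male and female animals were pooled. The labels list a control, which is not analysed here, and do not say which promoter drives the tagged protein. Whole animals were used, so the tissue in which the tagged protein met a gene cannot be read from these lists, and muscle is 1 of many tissues in them.

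The authors deposited ranked lists of regions on the build ce11: 30000 regions for each replicate, 30000 for both pooled, and a shorter list of 1794 peaks. The shorter list was made with the irreproducible discovery rate (IDR), a method that keeps regions ranked alike in both replicates. Each region carries the authors' own signal value, which ranks regions within a list. The peaks were the 1794 regions of highest pooled signal, from 843 down to 60.16. The pooled median was 22.5 and the lowest pooled signal 15.14. The authors label the pooled list of 30000 as peaks and background for IDR. A pooled region that is not a peak may thus be background, and counts of such regions are not counts of binding sites. The last of the 1794 highest regions had a signal of 30.5 in replicate 1 and 34.5 in replicate 2. A region was counted for a gene if the summit, its point of highest signal, fell inside the gene or at most 500 bp from one of its start sites in the annotation. Read numbers are absent from the lists used, and library depth is therefore unknown.

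Peaks were counted for 2 of the 10 genes, the actin genes act-2 and act-4, against 6.3% of all protein-coding genes. A pooled region of any rank was counted for 7 of the 10, against 46% of protein-coding genes. The genes without one were the pharyngeal myosin genes myo-1 and myo-2 and the actin gene act-1. Regions were found in both replicates for the same 7 genes, against 36.6% of protein-coding genes. A region among the 1794 highest of both replicates was found for 2, act-2 and act-4, against 4.35%. Among the 7, the highest pooled signals were 83.2 for act-4, 82.5 for act-2, 60.04 for unc-54, 57.8 for lev-11, 56.4 for myo-3, 41.9 for unc-15 and 39.8 for act-3. In this order unc-54, lev-11 and myo-3 came next after the 2 genes with a peak, all below the lowest peak, at 60.16.

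**Figure D1:**
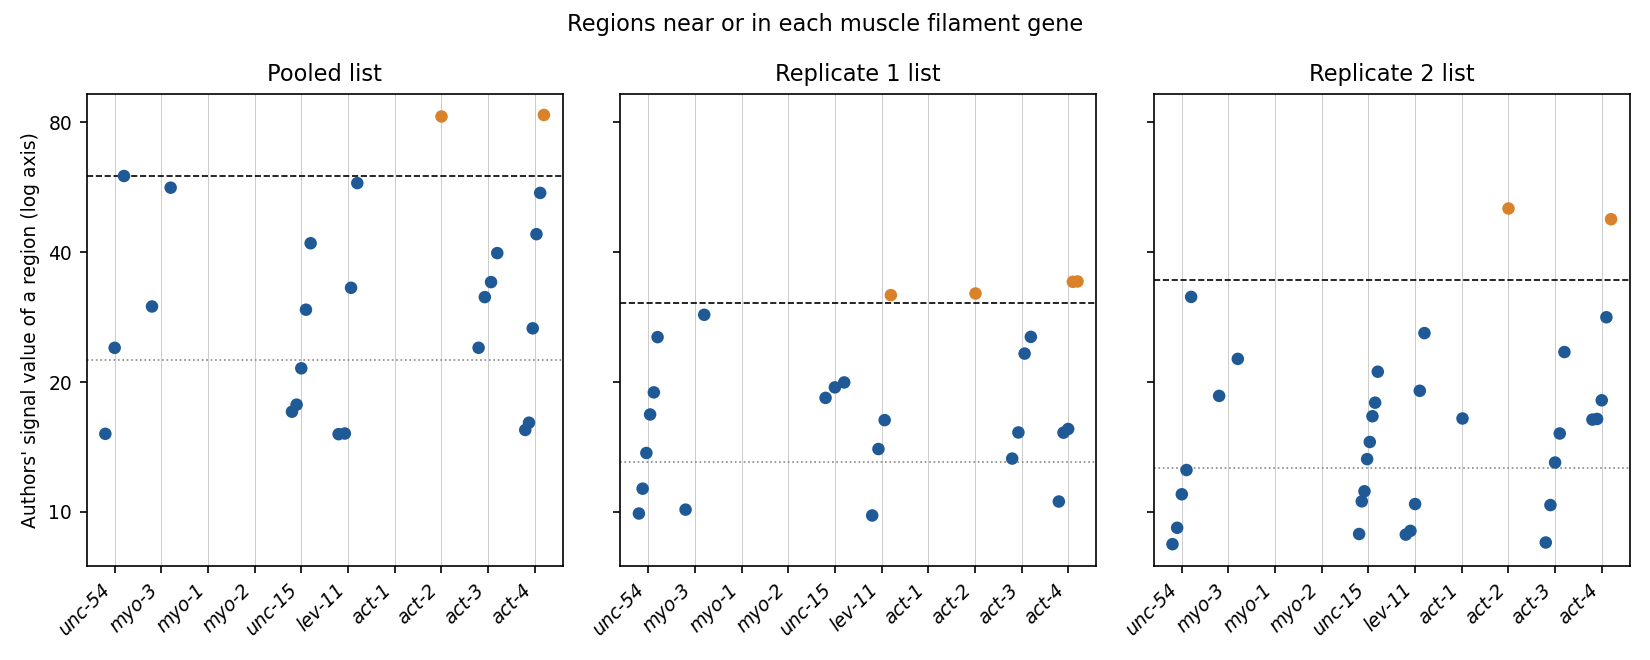
Authors' signal value (log axis) of every region counted for each of the 10 genes, with a panel for the pooled list and for each replicate. Each point is 1 region, orange points are among the 1794 highest of their list, the dashed line marks the lowest of those 1794 and the dotted line the list's median. In the pooled panel act-2 and act-4 lie above the dashed line and unc-54 lies at it, at 60.04 against 60.16.

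Longer genes hold regions more often, so the shares were also taken by gene length. Of protein-coding genes of 5 to 10 kb, 70.1% had a pooled region and 8.95% a peak. The 4 myosin genes, unc-15 and lev-11 fall in this class, and 4 of the 6 had a pooled region and 0 a peak. Of genes under 2 kb, which include act-1 and act-2, 4.45% had a peak and 32.2% a pooled region, and act-2 had both. Of genes of 2 to 5 kb, which include act-3 and act-4, 6.73% had a peak and 52.2% a pooled region; both genes had a pooled region and act-4 a peak. In the 61.4 kb searched for the 10 genes there were 4.07 pooled regions per 10 kb, against 2.85 per 10 kb over all protein-coding genes. Single genes ran from 0 for myo-1, myo-2 and act-1 to 12.1 per 10 kb for act-3 and 14.0 for act-4. Regions that overlap each other, which both act-3 and act-4 have, were each counted.

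Among actin genes, act-2 had its peak upstream of the gene. Actins of muscle polymerise into the thin filaments, and act-1, act-2 and act-3 lie next to each other on chromosome V. The act-2 peak (chrV:11078368-11078731) had its summit 396 bp upstream of the start site of act-2 (WBGene00000064, chrV:11076777-11078154, minus strand). Its pooled signal was 82.5 at rank 908. The overlapping region ranked 1559 in replicate 1 (signal 32.2) and 777 in replicate 2 (signal 50.7), within the 1794 highest of both. The peak also covered parts of the annotated noncoding RNA genes T04C12.18, T04C12.23 and T04C12.24.

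The act-4 peak lay inside the gene. act-4 (WBGene00000066, chrX:4960621-4964413, plus strand) encodes an actin and has 2 annotated start sites. The peak (chrX:4962162-4962525) had its summit in the first intron, 1723 bp downstream of the outer start site and 531 bp upstream of the inner one, just outside the 500 bp window. Its pooled signal was 83.2 at rank 891, and it ranked 1352 in replicate 1 (34.2) and 886 in replicate 2 (47.7). In the replicates' own lists its summit lay inside that window, 494 bp (replicate 1) and 493 bp (replicate 2) upstream of the inner start site. A further region 131 bp downstream of the outer start site had a pooled signal of 54.9 at rank 2163, below the peaks. It ranked 1357 in replicate 1 (34.1), among the 1794 highest, and 2680 in replicate 2 (28.3), not among them. Another region, overlapping the peak and 331 bp upstream of the inner start site, had a pooled signal of 44.0 at rank 3442. Among its 6 pooled regions, act-4 thus had a peak and a lower region before its inner start site. It also had a lower region at its outer one.

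The highest peaks of the actin cluster lay past the 3' ends of act-1 and act-2, outside the span searched for either gene. This position was examined after the regions were seen. The peak past act-1 (WBGene00000063, chrV:11081052-11082415, plus strand) lay at chrV:11082491-11082854, with its summit 258 bp beyond the end of the gene. It had a pooled signal of 123 at rank 391, and ranked 440 in replicate 1 (55.0) and 313 in replicate 2 (74.6). The peak past act-2 lay at chrV:11076385-11076748, with its summit 210 bp beyond the end of act-2. It had a pooled signal of 118 at rank 428, and ranked 186 in replicate 1 (80.0) and 1103 in replicate 2 (43.7). Both exceeded the peak upstream of act-2 in the pooled list, while in replicate 2 the peak past act-2 was lower than the upstream one. The nearest protein-coding start sites were those of act-1, 1621 bp away, and act-2, 1587 bp away. The noncoding RNA genes T04C12.29 and T04C12.14 overlap these peaks.

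The sequences of 101 bases centred on the summits of these 4 peaks are shown because they are the positions of highest signal at the actin genes, with that of the highest region of myo-3, described further on, for comparison. They come from the RefSeq copy of the ce11 genome, run 5' to 3' along the strand of the named gene, and have in capitals any match on either strand to 5 short words that were common in the whole peak list. These are GAGAGA and its shifted form AGAGAG, the word ACGCAG with its shifted form GACGCA, and the word CGTCTC. Matches that overlap run together.
act-1, past the 3' end, chrV:11082623-11082723, plus strand: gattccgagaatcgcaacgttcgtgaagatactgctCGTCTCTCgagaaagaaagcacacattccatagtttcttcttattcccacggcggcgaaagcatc
act-2, past the 3' end, chrV:11076517-11076617, minus strand: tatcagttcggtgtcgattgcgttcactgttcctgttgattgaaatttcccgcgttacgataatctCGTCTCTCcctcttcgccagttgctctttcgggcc
act-2, upstream, chrV:11078500-11078600, minus strand: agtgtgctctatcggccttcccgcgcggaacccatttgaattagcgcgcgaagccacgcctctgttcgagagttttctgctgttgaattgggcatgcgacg
act-4, the first intron, chrX:4962294-4962394, plus strand: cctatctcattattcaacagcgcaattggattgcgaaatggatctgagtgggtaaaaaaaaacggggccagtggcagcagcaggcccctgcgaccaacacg
myo-3, the first intron, chrV:12233634-12233734, minus strand: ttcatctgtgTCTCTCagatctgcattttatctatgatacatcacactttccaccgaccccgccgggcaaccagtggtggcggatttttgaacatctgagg

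Both peaks past a 3' end held the words CGTCTC and GAGAGA, overlapping each other, and shared a stretch of 10 bases, CTCGTCTCTC. That stretch lay within 50 bp of the summit in 4 of the 1794 peaks and in 9 of the other pooled regions, and in 0.105% of promoters (250 bases before to 50 after the outermost start site). It was picked from these sequences after they were read. Within 50 bp of the summit, the peak upstream of act-2 and the act-4 peak held none of the 5 words. The rest of each peak was not read. Within the same span 45.8% of all peaks held at least 1 of the words, and 14.8% of the other pooled regions. The words were picked because they were common in this peak list, so that difference is no independent result. GC content within 50 bp of the summit was 47.5% and 49.5% at the peaks past act-1 and act-2, 56.4% upstream of act-2 and 51.5% in act-4. The median was 45.5% for peaks and 32.7% for other pooled regions.

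**Figure D2:**
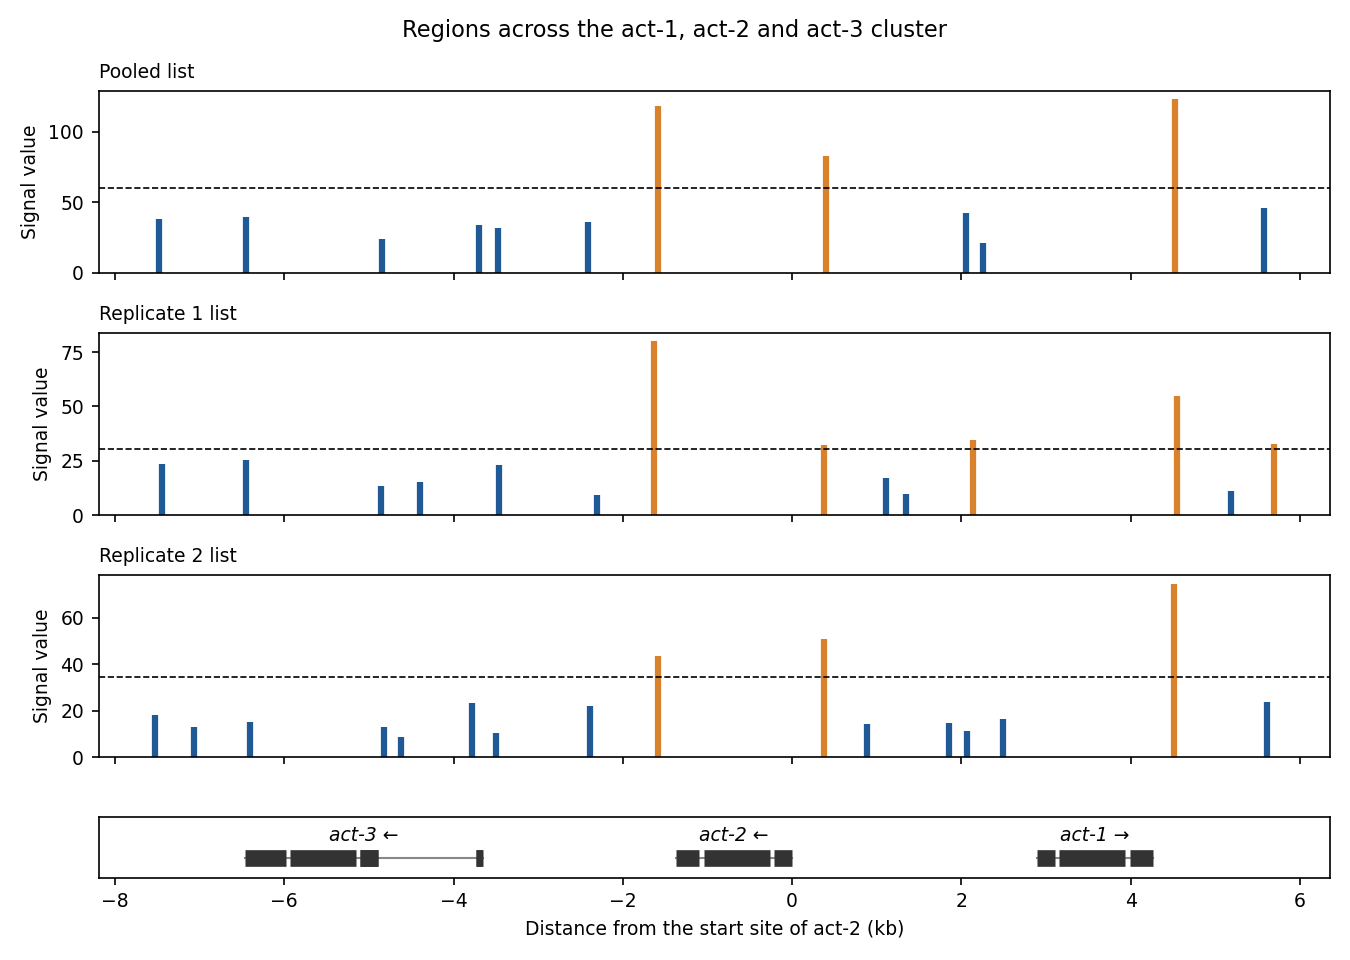
Signal value of each region (vertical lines at the summit) against distance from the start site of act-2 in kb, in the pooled list and both replicates, with exons as boxes and arrows for the direction of transcription. Orange regions are among the 1794 highest of their list and the dashed line marks the lowest of those. The 3 pooled peaks, at 118, 82.5 and 123, lie between and beyond the genes and not in them.

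Regions upstream of act-1 differed in rank between the replicates. No pooled region was counted for it, and the only region counted in a replicate was at rank 8579 in replicate 2 (16.5), 413 bp upstream of its start site. Farther out, replicate 1 had a region 761 bp upstream at rank 1309 (34.6), among its 1794 highest. Replicate 2 had regions 838 bp upstream at rank 17955 (11.5) and 1048 bp upstream at rank 11170 (14.6), neither among its 1794 highest. Both overlapped that region of replicate 1. The pooled list had regions at 638 bp (21.5) and 839 bp (42.3) upstream, neither of them a peak. act-3 (WBGene00000065, chrV:11071690-11074498, minus strand) had 4 pooled regions and no peak. Its highest, with a signal of 39.8 at rank 4281, lay at the 3' end, 16 bp before the end of the gene, and ranked 2829 in replicate 1 (25.5) and 10282 in replicate 2 (15.2). The region at its outer start sites, 34 bp downstream, had a pooled signal of 34.1 at rank 6008.

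The actin genes share sequence, which bears on where regions could be called. The coding sequences of act-1 and act-3 were identical over 1128 bases. That of act-2 was identical to them at 96.2% of positions, and that of act-4 at 94.1%. Of the 36-base words in act-1, 14.9% occur once in the genome, against 65.5% in act-2, 58.8% in act-3 and 94.7% in act-4. In the 6 other genes the share was 98.9% or higher. The sources used here do not say how reads matching several places were treated, so the lack of regions inside act-1 was not separated from shared sequence. The peaks past act-1 and act-2 and upstream of act-2 consisted wholly of words found once, and the act-4 peak of 98.6% such words.

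**Figure D3:**
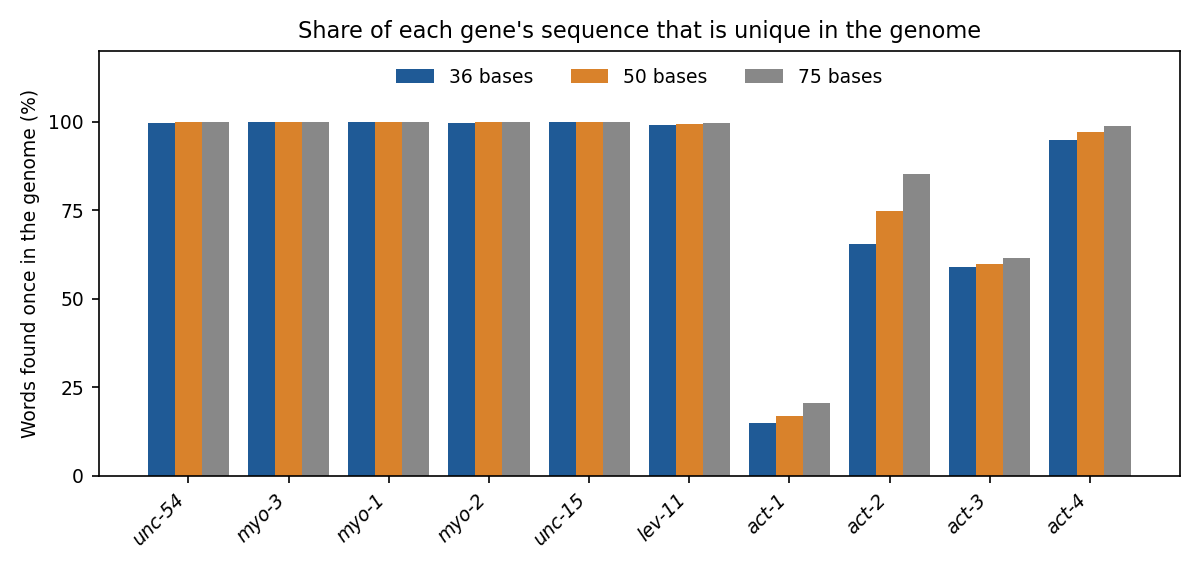
Percentage of words of 36, 50 and 75 bases in each gene that are found once in the genome, counted on both strands. act-1 has the lowest share at each length, 14.9% at 36 bases and 20.6% at 75 bases, and the myosin genes, unc-15 and lev-11 lie near 100%.

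The body wall myosin genes had their highest regions inside introns, just below the lowest peak for unc-54 and farther below it for myo-3. unc-54 (WBGene00006789, chrI:14855901-14863482, minus strand) encodes the main myosin heavy chain of body wall muscle. Its highest region (chrI:14862110-14862473) lay in the third intron, 1190 bp downstream of the start site, with a pooled signal of 60.04 at rank 1803, 0.998 times the signal of the lowest peak. It ranked 2836 in replicate 1 (25.4) and 2146 in replicate 2 (31.5), outside the 1794 highest of both. At the start site itself the pooled region had a signal of 15.2, at rank 29910, near the lowest of the list, with a q-value of 0.865. A peak also overlapped the 3' end of unc-54 (chrI:14855574-14855937, signal 69.6, rank 1336). Its summit lay 145 bp beyond unc-54 and 71 bp from the start site of the neighbouring gene aex-5, so it was not counted for unc-54. It ranked 960 in replicate 1 and 2489 in replicate 2.

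myo-3 (WBGene00003515, chrV:12226817-12234343, minus strand) encodes the minor myosin heavy chain of body wall muscle, which lies at the middle of the thick filament. Its highest region (chrV:12233502-12233865) lay in the first intron, 659 bp downstream of the start site, with a pooled signal of 56.4 at rank 2026, 0.938 times the signal of the lowest peak. It ranked 2099 in replicate 1 (28.6) and 4308 in replicate 2 (22.6). The summit fell in the noncoding RNA gene K12F2.3, and the region also overlapped K12F2.4 and K12F2.5. A second region 319 bp upstream of the start site had a pooled signal of 29.9 at rank 7975, and ranked 24653 in replicate 1 and 6627 in replicate 2. The sequence at this intronic summit is printed with those of the actin peaks, and holds the reverse complement of GAGAGA.

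Neither pharyngeal myosin gene had a region in any list. myo-1 (WBGene00002348, chrI:7258946-7267057, minus strand) and myo-2 (WBGene00003514, chrX:12468061-12475348, plus strand) encode the heavy chains used in pharyngeal muscle. Of the genes described here they were the ones with no region within 500 bp of a start site or in the gene in the pooled list, in replicate 1 and in replicate 2. The pooled region nearest to the myo-1 start site lay 4432 bp upstream (signal 41.3), and nearer to the start site of twk-1. The one nearest to myo-2 was a peak 9873 bp upstream (signal 63.7), nearest to T18D3.1. In replicate 2 a region of rank 24857 lay 2066 bp upstream of myo-1. Of protein-coding genes, 48.9% had a region in replicate 1 and 48% in replicate 2.

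unc-15 and lev-11 had their highest regions in introns as well. unc-15 (WBGene00006754, chrI:7376604-7383197, minus strand) encodes paramyosin, the core protein of thick filaments. Of its 5 pooled regions the highest (chrI:7381007-7381370) lay in the fifth intron, 2008 bp downstream of the outer start site and 1861 bp upstream of the inner one. Its signal was 41.9 at rank 3829, and it ranked 5299 in replicate 1 (20.0) and 5006 in replicate 2 (21.1). Those ranks were near each other, and none of the 3 lists placed it among the highest 1794. The other 4 had signals from 17.1 to 29.4.

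lev-11 (WBGene00002978, chrI:14621169-14631094, minus strand) encodes tropomyosin, in several isoforms from different start sites. Its highest region (chrI:14627895-14628258) lay in the third intron, 3017 bp downstream of the outermost start site and 2631 bp upstream of the nearest inner one. Its pooled signal was 57.8 at rank 1913, and it ranked 1614 in replicate 1 (31.8) and 3197 in replicate 2 (25.97). It was thus among the 1794 highest regions of replicate 1 and not of replicate 2. A region at the 3' end of the gene had a pooled signal of 33.1 at rank 6403. No pooled region lay within 500 bp of any of the 11 start sites of lev-11.

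**Figure D4:**
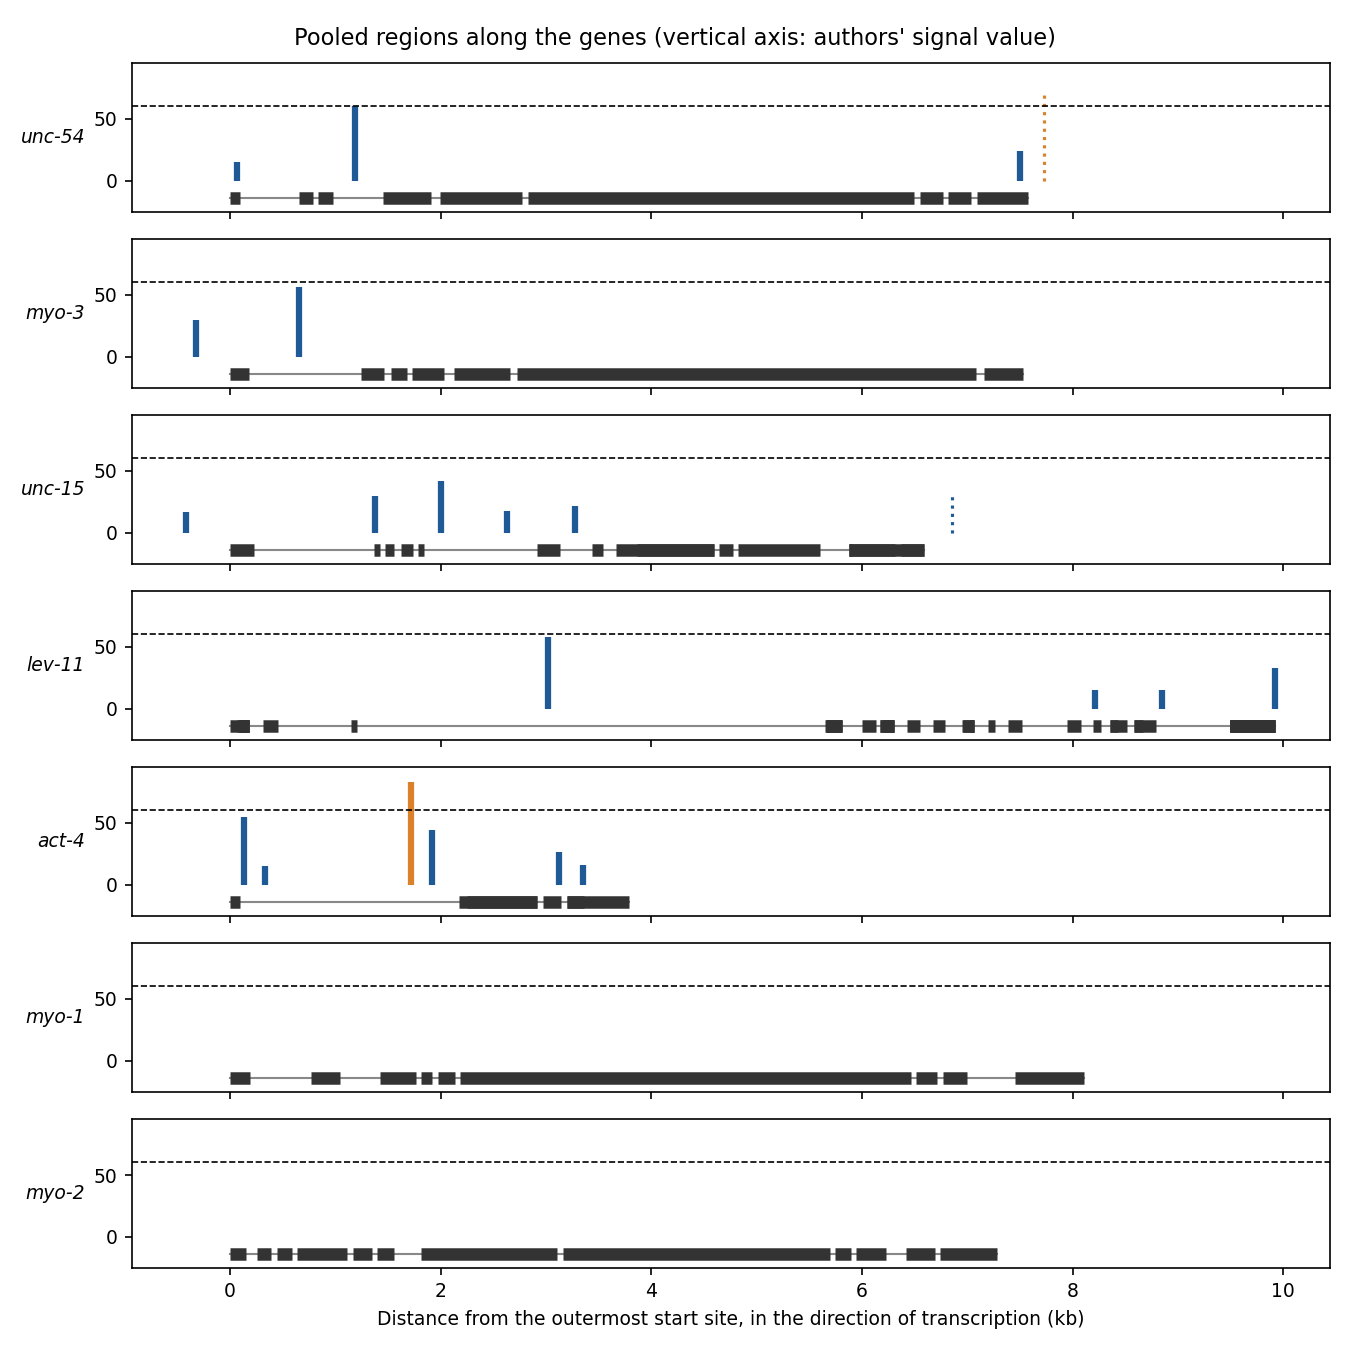
Pooled regions along 7 of the genes, against distance in kb from the outermost start site in the direction of transcription, with exons as boxes, introns as lines and signal value as the height of each vertical line. Solid lines are regions counted for the gene, dotted lines are regions past its 3' end, orange marks peaks and the dashed line the lowest peak. The highest counted regions of unc-54, myo-3, unc-15, lev-11 and act-4 lie in introns, at signals of 60.04, 56.4, 41.9, 57.8 and 83.2, and the panels of myo-1 and myo-2 are empty.

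Of the 7 genes with a pooled region, 5 had the highest in an intron, 1 upstream (act-2) and 1 in an exon at the 3' end (act-3). Over all 9191 protein-coding genes with a region the highest lay in an intron for 34.4%, and for 53.0% of those of 5 to 10 kb. Counting every region, 12 of the 25 member regions lay in introns (48.0%), 4 upstream, 5 in coding exons and 4 in untranslated exons, and introns held 50.8% over all protein-coding genes. Counting only the start site windows, act-2 alone kept a peak, against 5.18% of protein-coding genes. The act-4 peak fell outside by its pooled summit, while its summit in each replicate lay inside the window.

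The deposited q-values gave a wider set, at a threshold chosen after seeing the data. At a q-value of 0.05 or less in the pooled list, 5 of the 10 genes had a region (unc-54, myo-3, lev-11, act-2 and act-4), against 10.4% of protein-coding genes. This share was not taken by gene length, and unc-54, myo-3 and lev-11 are genes of 5 to 10 kb. The q-values of the highest regions were 0.000295 for act-2 and act-4, 0.000832 for unc-54, 0.00131 for lev-11 and 0.00321 for myo-3, and 0.0777 for unc-15 and 0.110 for act-3. In replicate 1's own 1794 highest regions 3 of the genes had a region (lev-11, act-2 and act-4), against 6.07% of protein-coding genes, and in replicate 2's 2 did (act-2 and act-4), against 6.3%.

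Within 500 bp of the 3' end, 3 of the 10 genes had a peak (unc-54, act-1 and act-2), against 2.53% of protein-coding genes. With only peaks over 500 bp from every protein-coding start site, 2 of the 10 genes had one, act-1 and act-2, against 1.35%. A pooled region lay within 500 bp of the 3' end of 7 of the genes, against 30.3% of protein-coding genes and 61.7% of ribosomal protein genes (50 of 81). The 7 were unc-54, unc-15, lev-11 and the 4 actin genes, so the 3 genes without one were myo-1, myo-2 and myo-3. The act-4 region was near the lowest of the list, at a signal of 16.1 and rank 27457. Its summit lay in a coding exon, 439 bp before the end of the gene, and replicate 1 had no summit within 500 bp of that end. With only regions over 500 bp from every protein-coding start site, 6 of the 10 genes had one (unc-15, lev-11 and the 4 actin genes), against 21.2%. These windows were chosen after the actin cluster had been seen.

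The promoters of the 10 genes were also read for the 5 words and for GC content, as a description. Their median GC content was 50.8%, against 34.3% over all protein-coding promoters, and it ran from 33.7% in act-2 to 58.7% in act-4. GAGAGA or its complement lay in 7 of the 10 promoters, against 21.8% of all promoters, and the same 7 were those with any of the 5 words (38.9% of all). The pharyngeal genes myo-1 and myo-2 were among the 7, with 4 words each, and had no region. The promoters of act-1, act-3 and act-4 held none of the words.

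Ribosomal protein genes, which are transcribed in every tissue, were counted in the same lists. Of 81, 48 had a peak (59.3%), all of them within 500 bp of a start site, and 70 had a pooled region. Some of these peaks lay nearer to the start site of another gene. The rps-26 peak was 9 bp from that of tmem-107, and the rps-0 peak 57 bp from that of rbg-3. A single peak was counted for both rpl-36 and rps-14, and another for both rpl-24.1 and rps-10. The median of the highest pooled signal was 86.4 over those 70 genes, 57.8 over the 7 muscle filament genes with a region and 27.2 over all protein-coding genes with one. The ribosomal protein genes were also shorter, with a median length of 754 bp against 6941 bp for the 10 genes. No test was made of the difference between these lists.

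**Figure D5:**
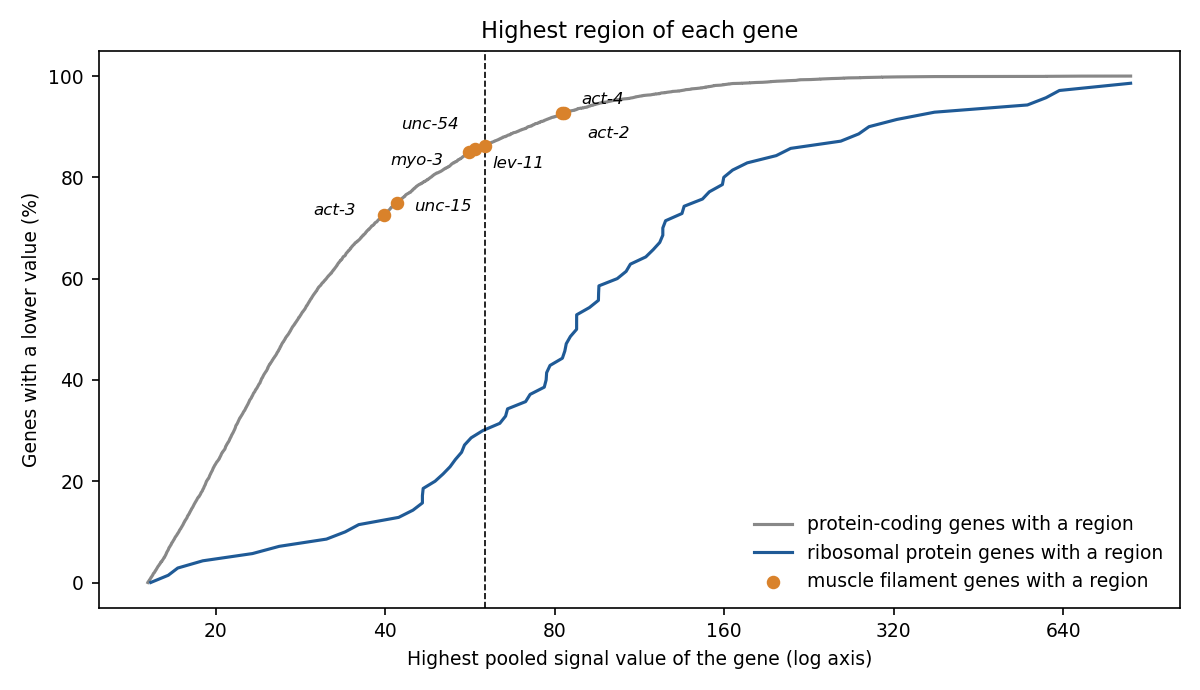
Percentage of genes with a lower value against the highest pooled signal value of a gene (log axis), for all protein-coding genes and for ribosomal protein genes with a region, with the 7 muscle filament genes as points on the curve of all genes. The dashed line marks the lowest peak, at 60.16. act-2 and act-4 lie above 92.6% and 92.7% of genes with a region, and act-3 above 72.5%.

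Other genes of muscle and the cytoskeleton were taken from lists by function. Of 84 such genes 6 had a peak (7.14%), against 6.3% of all protein-coding genes. These were hsp-90 (signal 279), a chaperone that helps fold myosin, cap-2 (228), which encodes a subunit of the actin capping protein, and unc-112 (108), the kindlin of muscle attachments. The other 3 were unc-94 (81.5), which encodes tropomodulin, unc-60 (78.9), which encodes a cofilin, and hlh-1 (61.6), the MyoD homologue that specifies body wall muscle. The hsp-90 peak lay nearer to the start site of C47E8.4. That of unc-60 lay 496 bp from the start sites of both unc-60 and F53E2.2.

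By function, peaks were found at 3 of 11 regulators of thin filaments, 1 of 6 genes for thick filament assembly, 1 of 17 for muscle attachments and 1 of 7 muscle transcription factors. None was found at 10 troponin genes, 7 myosin light chain genes, 4 giant sarcomere proteins, 11 other myosin heavy chains and 10 genes of muscle excitation. With a share of 6.3% over all protein-coding genes, lists of these sizes can hold no peak without standing apart from other genes. The highest pooled signals in those lists were 50.4 for mup-2 (troponin T), 44.0 for mlc-3 (a myosin light chain), 55.3 for ttn-1 (a titin-like protein), 35.5 for hum-1 (an unconventional myosin) and 48.8 for sca-1 (the calcium pump of the sarcoplasmic reticulum). The actin gene act-5, which is known from the intestine, had no pooled region.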

How the data were processed

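The data were ChIP-seq region lists for 1 group of 2 replicates; fragments of 150 to 350 bp went into the libraries, per the labels. The signal values (arbitrary scale) and the −log10 q-values are the authors', as deposited, read from columns 7 and 9 by the order of the narrowPeak format. Lists given to IDR were derived from alignments and a control, per the text files deposited with each sample. The sources used here name no aligner or peak caller, nor the cutoff applied to the IDR. Counts of genes were made in Python 3.11.15 with pandas 2.3.3 from Ensembl release 115 genes (WBcel235, the assembly of ce11), with summits from the deposited offsets. The ce10 lists were not used here. For each pooled region, the overlapping replicate region of nearest summit was taken (at least 1 bp). The search was tested on simulated regions. No test was made: there is 1 group, and a list chosen by name is described beside all genes. Members, lists and the 5 words were chosen with earlier results of these data known. All 10 members are named, partners with a peak, and otherwise the highest of each list. Of 86 partner symbols 84 matched. Alternatives were other windows, start sites only, overlap, stricter thresholds, each replicate alone and other word lengths.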

Additional observations from a re-analysis of the deposited data

How the results depend on the processing

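The 2 genes with a peak became 1 with a window of 250 bp (act-4), 1 with start site windows only (act-2) and 1 with the upper 897 peaks by signal (act-4), and 5 with pooled regions at a q-value of 0.05 or less, a setting chosen after seeing the data. Any overlap added unc-54 (3 genes). With either replicate alone the count was 2 to 3. The count of 7 genes with a pooled region ran from 6 to 8 over its alternatives, and from 7 to 8 with either replicate alone. That of regions in both replicates ran from 5 to 8. The 3 genes with a peak at the 3' end were 2 to 3 under every alternative run, also with either replicate alone. The 6 partner genes with a peak became 3 with the upper peaks by signal and 16 at the q-value threshold, and were 5 to 6 with either replicate alone. With either replicate alone, hlh-1 was not among them. Depth is unknown, so a gene without a region cannot be told from one with too few reads, and with 2 replicates no error of a signal value can be given.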

Other observations

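Among the 84 partner genes, 5 had a peak within 500 bp of the 3' end (mlc-3, hsp-90, deb-1, pat-3 and pat-4), against 2.53% of protein-coding genes, and 3 of them (mlc-3, pat-3 and pat-4) kept it with only peaks over 500 bp from protein-coding start sites, against 1.35%. A pooled region lay within 500 bp of the 3' end of 48 of the 84 (57.1%), against 30.3% of protein-coding genes, and of 37 (44.0%) when regions nearer than that to a protein-coding start site were left out, against 21.2%. Of the 81 ribosomal protein genes 5 had a peak at the 3' end (6.17%), and rpl-3 alone had one over 500 bp from protein-coding start sites. A pooled region lay at the 3' end for 50 of the 81 (61.7%), and for 20 (24.7%) without those near such a start site.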
